A study of Homo sapiens with 6 samples.

Results

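The miRNAs described here are the 7 mature products of the miR-374a, miR-545, miR-374b and miR-421 hairpins, all of which lie in FTX, a long non-coding RNA gene of the X chromosome. They were taken by name from a table of 2656 mature miRNAs: miR-374a-5p, miR-374a-3p, miR-374b-5p, miR-374b-3p, miR-545-5p, miR-545-3p and miR-421. All 7 were among the 783 miRNAs abundant enough to test. They were picked with their difference between the 2 groups of cells already known, so that difference is given below as a description, with no p-value for a member. All libraries were made from small RNA of KPL4, a cell line derived from a human breast adenocarcinoma. Knockout of ERβ (estrogen receptor β, encoded by ESR2) defines the first group, with libraries S1, S2 and 3. The second group is knockout cells that carry exogenous ERβ, with libraries 1, 2 and 3. Both groups lack the endogenous receptor and were grown in Ham's F12 medium with serum, insulin and hydrocortisone. The sources used here do not say which promoter drives the exogenous receptor or how many clones were used. Knockout cells with an empty vector are not among the samples, so ERβ itself and the steps used to introduce it cannot be told apart. The assay holds no messenger RNA, so ESR2 could not be checked.

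A miRNA hairpin is cut from its host transcript by Drosha and from the resulting stem loop by Dicer, which leaves a 5p and a 3p arm. One arm usually enters Argonaute and pairs with target messages mainly through its seed, the bases from position 2 to 8. FTX is a gene of the X-inactivation centre and a positive regulator of XIST, and its introns carry these hairpins in a pair of short clusters. miR-374a has been tied to Wnt signalling and metastasis in breast cancer, miR-374b to the AKT pathway, miR-421 to repression of the DNA damage kinase ATM, and miR-545 to repression of the cyclin D and CDK4 axis. The assay counts mature miRNAs, so FTX itself and the target messages were not measured.

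On GRCh38, GENCODE release 29 places FTX on the minus strand of chromosome X, from 73946555 to 74293574. The hairpins MIR374A (74287286 to 74287357) and MIR545 (74287104 to 74287209) lie 76 bases apart and about 6 kb into the gene, at 6217 and 6365 bases from its annotated start. MIR374B (74218547 to 74218618) and MIR421 (74218377 to 74218461) lie 85 bases apart and 68485 bases further downstream of that pair. All 4 are on the strand of FTX. Of 18 annotated FTX transcripts 13 span the first pair and 7 span the second, and in every one of these the hairpins fall in introns. The opposite strand carries a further hairpin at the position of MIR374B, MIR374C (74218549 to 74218618), whose 2 arms are not counted among the 7.

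The mature sequences are shown with the seed in capitals, from the RefSeq table on GRCh38.p14. That table held 6 of the 7 members and had no entry for miR-374a-5p.
miR-374a-3p: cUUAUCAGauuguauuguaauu
miR-374b-3p: cUUAGCAGguuguauuaucauu
miR-374b-5p: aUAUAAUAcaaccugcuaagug
miR-545-5p: uCAGUAAAuguuuauuagauga
miR-545-3p: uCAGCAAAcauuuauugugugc
miR-421: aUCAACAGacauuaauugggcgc
Among these 6 the seeds all differ, and no other entry of the RefSeq table shares one of them. miR-374a-5p was not part of this comparison, so whether its seed matches one of the 6 was not tested. The paralogous arms miR-374a-3p and miR-374b-3p are the same at 18 of 22 positions and have different seeds. The sequences are poor in G and C. miR-374a-3p and miR-545-5p have a GC content of 22.7%, and 1.45% of tested miRNAs with a sequence are at or below this value. For miR-374b-5p and miR-374b-3p the GC content was 31.8%, for miR-545-3p 36.4% and for miR-421 43.5%, against a median of 47.6% over tested miRNAs.

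The products of the opposite-strand hairpin and a miRNA with a related seed are shown for comparison, because they overlap the members in sequence.
miR-374c-5p: aUAAUACAaccugcuaagugcu
miR-374c-3p: cACUUAGCagguuguauuauau
miR-655-3p: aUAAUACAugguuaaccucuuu
miR-374b-5p and miR-374c-5p share a run of 20 bases, and miR-374b-3p and miR-374c-3p one of 18. miR-374c-3p is the exact reverse complement of miR-374b-5p. miR-374c-5p and miR-655-3p, a product of the imprinted 14q32 cluster, have the same seed. The hairpin MIR374B (GRCh38.p14, chrX:74218547-74218618, minus strand) is shown 5′ to 3′ with its 2 mature arms in capitals, because the arms of MIR374C are read from the other strand of the same bases.
MIR374B: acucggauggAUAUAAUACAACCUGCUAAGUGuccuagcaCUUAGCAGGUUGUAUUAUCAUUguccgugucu

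The deposited values are expected counts, which need not be whole. At least 1 of miR-374a-5p, miR-374b-5p and miR-374c-5p was not whole in 6 of 6 libraries, while their sum was whole to within 0.05 in 6 of 6. The sum of miR-374b-3p and miR-374c-3p was likewise whole in all 6, with fractions in 4. miR-374c-5p received 0.00667 to 0.0145% of the first sum and miR-374c-3p 0.145 to 0.487% of the second. How many reads were divided between miR-374a-5p and miR-374b-5p was not tested, so the levels of these paralogs are uncertain by that amount.

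Library totals ran from 10288415 to 14296902 counts, and 3 counts, taken as the floor, correspond to 0.201 to 0.305 CPM (counts relative to library totals scaled by the TMM method, the unit of all levels below). One library stood apart. Knockout S2 differed from the other knockout libraries by a chi-square per degree of freedom of 307 and 331 over tested miRNAs, against 12.2 to 21.2 for all other pairs within a group. In S2 miRNAs of low GC content were lower and those of high GC content higher. Over the 224 tested miRNAs of lowest GC content (12.5 to 40.9%), S2 lay at a median log2 difference of -0.24 from the mean of S1 and 3, and over the 164 of highest GC content (55.0 to 91.3%) at 0.38. Results on the members are therefore given with and without S2. Of the epithelial and luminal markers, which include miR-200 family members, miR-375-3p and miR-205-5p, 7 of 7 had counts in every library, with a summed level of 85768 to 101425 CPM in knockout cells and 85867 to 90214 CPM with ERβ. The 6 blood markers summed to 18.0 to 23.0 CPM and 18.7 to 21.8 CPM, and 5 muscle, liver and neural markers to 20.3 to 24.3 CPM and 20.8 to 29.1 CPM. The 7 stromal and endothelial markers summed to 21874 to 23482 CPM and 18304 to 20200 CPM, most of it miR-126-3p at 16796 ± 224 and 13690 ± 581 CPM (mean ± SD, n = 3). Single markers moved inside these sums (edgeR, adjusted over all tested miRNAs). Of all tested miRNAs 9.83% were called higher with ERβ and 13.3% lower. In the epithelial list 1 of 7 was higher with ERβ, miR-205-5p (log2 fold change 0.52 ± 0.08), and 3 were lower, among them miR-375-3p (-0.57 ± 0.10). Of 5 stromal markers tested 3 were lower and 0 higher. Of the 5 muscle, liver and neural markers 2 could be tested, with 1 lower and 0 higher. The lower was muscle miR-1-3p, which went from 3.35 ± 0.528 to 0.515 ± 0.233 CPM, and liver miR-122-5p was not called (0.33 ± 0.15). No listed marker was at 0 in all 6 libraries. The part of other cell types in the results below was not tested. The labels do not state whether replicates are separate cultures, and errors then measure only the spread between these samples, which may be technical.

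All 7 members were higher in the cells with exogenous ERβ, by similar and modest amounts. Fold changes ran from 1.23 for miR-374b-5p to 1.40 for miR-374a-5p, and on the log2 scale from 0.30 to 0.48 with a median of 0.40, against -0.01 over the 783 tested miRNAs. In 7 of 7 every ERβ library lay above every knockout library, as it did in 18.9% of all tested miRNAs. By edgeR's quasi-likelihood test, adjusted by Benjamini-Hochberg over all tested miRNAs at 0.05, 4 of 7 passed, where 9.83% of all tested miRNAs were called higher, 13.3% lower and 23.1% in either direction. These 4 were miR-374a-5p, miR-545-5p, miR-545-3p and miR-421. Nothing is read from these counts because the members were chosen on this comparison. Together the 7 made up 0.796 to 1.02% of all counts in the knockout libraries and 1.37 to 1.46% in those with ERβ. These are shares of library totals without TMM scaling, so they are not on the scale of the fold changes above. From 62.7 to 68.4% of the summed counts were miR-374a-5p.

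**Figure D1:**
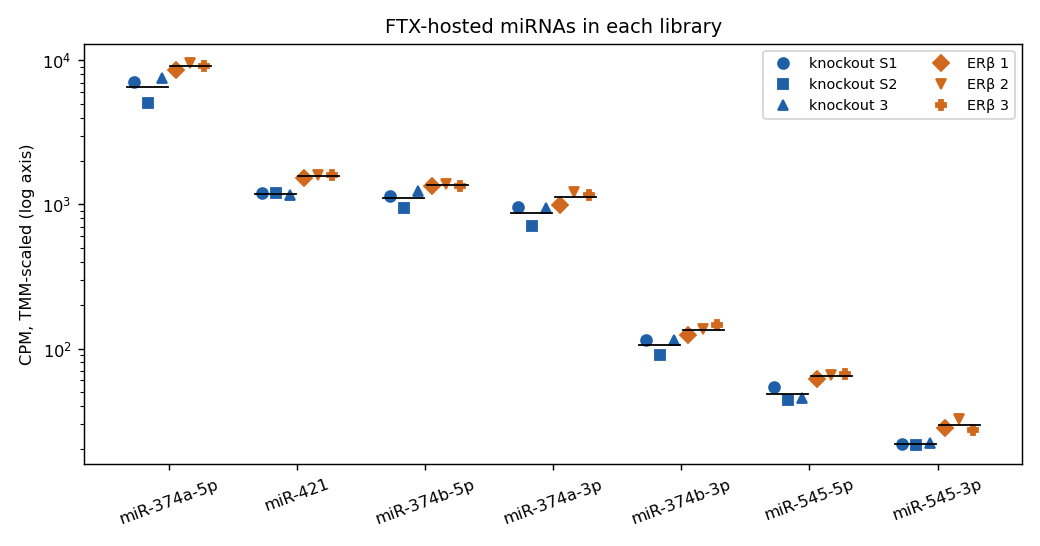
Level of each FTX-hosted miRNA in each of the 6 libraries, in TMM-scaled CPM on a log axis; blue points are knockout and orange points ERβ libraries, and black lines are group means. The members span from about 25.5 CPM for miR-545-3p to 7832 CPM for miR-374a-5p, and for each of the 7 the ERβ points lie above the knockout points.

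miR-374a-5p, the Wnt-linked product, was the dominant member and ranked 35th of all miRNAs by mean level (7832 CPM). It stood at 7055, 5044 and 7515 CPM in knockout S1, S2 and 3 and at 8607, 9571 and 9202 CPM in ERβ 1, 2 and 3. The groups did not overlap, and S2 was the lowest library by a wide margin. The log2 fold change was 0.48 ± 0.13 (standard error, n = 3 per group). miR-374a-3p, the minor arm of the same hairpin, was at 957, 703 and 941 CPM in knockout cells and at 993, 1212 and 1168 CPM with ERβ. Here the groups nearly touched, ERβ 1 lying only 0.05 log2 units above knockout S1, and the log2 fold change of 0.38 ± 0.13 did not pass.

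miR-545, which shares the cluster with miR-374a, was far less abundant. miR-545-5p was at 54.1, 44.1 and 45.7 CPM in the knockout libraries and at 61.8, 65.0 and 66.3 CPM in those with ERβ (log2 fold change 0.42 ± 0.11). miR-545-3p was at 21.8, 21.4 and 22.1 CPM and at 28.1, 32.4 and 27.2 CPM (0.43 ± 0.11). The 3 knockout values of miR-545-3p were nearly equal, S2 included, and both arms lay apart between groups.

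In the downstream cluster, miR-421, known for repressing ATM, had the smallest error of the 7: it stood at 1196, 1195 and 1172 CPM in knockout cells and at 1527, 1588 and 1591 CPM with ERβ, a log2 fold change of 0.40 ± 0.06. S2 lay between S1 and 3 for this miRNA, and the gap between the groups, 0.35 log2 units, was the widest among the 7 members. miR-374b-5p was at 1138, 940 and 1229 CPM in knockout cells and at 1336, 1390 and 1345 CPM with ERβ (0.30 ± 0.10). miR-374b-3p was at 114, 90.6 and 115 CPM and at 124, 137 and 145 CPM (0.35 ± 0.12). Both arms of miR-374b lay apart between groups, with S2 the lowest library, and neither passed the test. The 4 products of the upstream pair of hairpins had a median log2 fold change of 0.43 and the 3 of the downstream pair one of 0.35. These ranges, 0.38 to 0.48 and 0.30 to 0.40, overlapped.

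**Figure D2:**
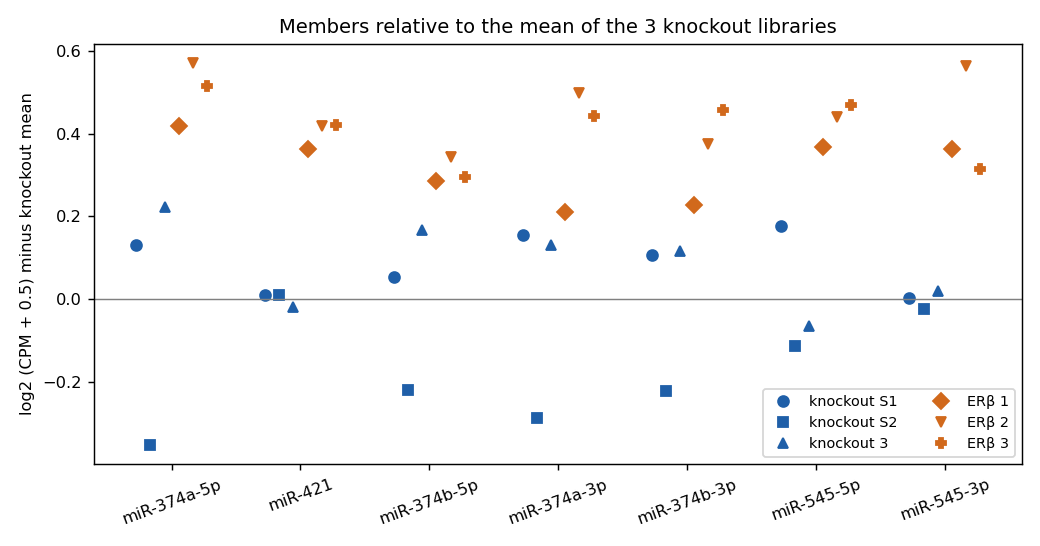
Each member's log2 (CPM + 0.5) minus its mean over the 3 knockout libraries, by library; blue points are knockout and orange points ERβ libraries. Knockout S2 lies at -0.35 for miR-374a-5p and between -0.29 and -0.22 for the other miR-374 products, but at 0.01 for miR-421 and -0.02 for miR-545-3p.

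The library that stood apart weighed unequally on the members. Against the mean of knockout S1 and 3, S2 lay at a log2 difference of -0.53 for miR-374a-5p, -0.43 for miR-374a-3p and -0.33 for both arms of miR-374b. The difference was -0.17 for miR-545-5p, -0.04 for miR-545-3p and 0.01 for miR-421. Without S2 the log2 fold change of miR-374a-5p was 0.33 ± 0.05 and that of miR-374b-5p 0.20 ± 0.05. miR-374a-3p and miR-374b-3p were then both at 0.25 ± 0.07. miR-421 was at 0.41 ± 0.04, miR-545-3p at 0.42 ± 0.10 and miR-545-5p at 0.37 ± 0.08. The values of the 4 miR-374 products and of miR-545-5p were thus smaller without S2, while miR-421 and miR-545-3p changed by 0.01. Standard errors were smaller for all 7, and 7 of 7 members passed, where 15.2% of 800 tested miRNAs were called higher.

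Which members passed also depended on the processing. All 4 of the scalings tried kept every member higher. With DESeq2 size factors 4 passed (background 10.1%), with scaling by the upper quartile 7 (15.7%) and on library totals alone 7 (18.6%). Without a filter 7 passed (5.47%), and 7 did so with at least 10 CPM in 3 libraries (15.5%). The DESeq2 test called 7 (8.94%) and limma-voom 4 (10.3%). Blocking on the numbers in the column names in edgeR left 0 (4.85%). At an unadjusted p under 0.05, 4 of 7 were then higher, where 10.3% of all tested miRNAs were. ERβ 2 had no knockout library of its number in that fit. Leaving out knockout S1 left 3 (7.63%), knockout 3 left 4 (8.71%), ERβ 1 left 3 (6.54%), ERβ 2 left 1 (6.44%) and ERβ 3 left 2 (6.12%). miR-421 passed in each of these except the block, and the member that remained without ERβ 2 was miR-421. The members were chosen on this comparison, so nothing is read from these counts or from the unchanged direction either.

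**Figure D3:**
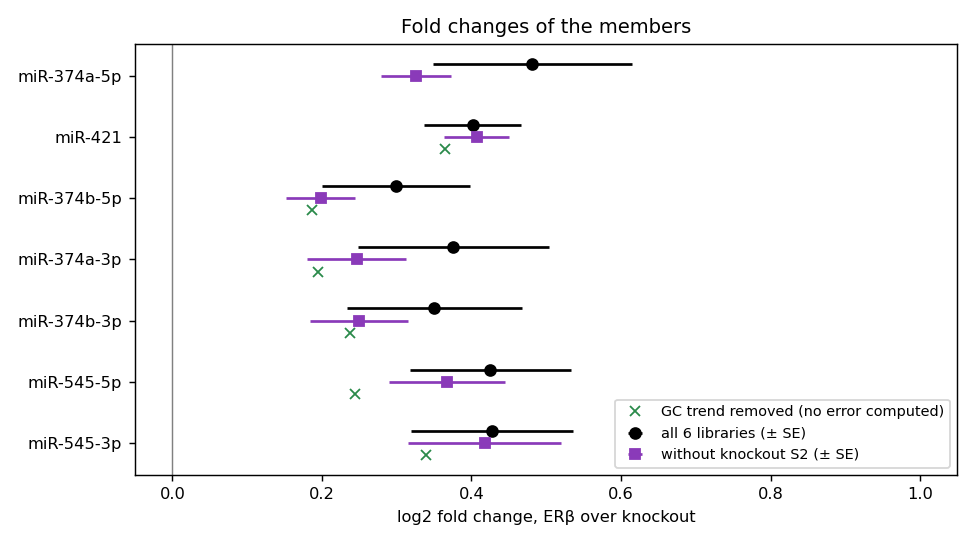
Log2 fold change, ERβ over knockout, of the members from all 6 libraries (black, ± standard error), without knockout S2 (purple, ± standard error) and after removal of the trend with GC content (green crosses, no error computed; not available for miR-374a-5p). Every point lies above 0, and the miR-374 products move further to the left than miR-421, which stays between 0.37 and 0.41.

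The fold changes of all tested miRNAs followed GC content as well. Of the tested miRNAs 690 had a RefSeq sequence (88.1%). The median log2 fold change was 0.07 over the 224 of lowest GC content and -0.12 over the 164 of highest. Without S2 the latter was 0.06, and the former was within 0.01 of 0. Removing a smooth trend with GC content, in all 6 libraries, left miR-374a-3p at 0.19, miR-374b-5p at 0.19, miR-374b-3p at 0.24 and miR-545-5p at 0.24. miR-545-3p was then at 0.34 and miR-421 at 0.37. The members of lowest GC content lost the most and miR-421, of highest GC content, the least, and all 6 stayed positive. The part of base composition in these values was not tested.

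**Figure D4:**
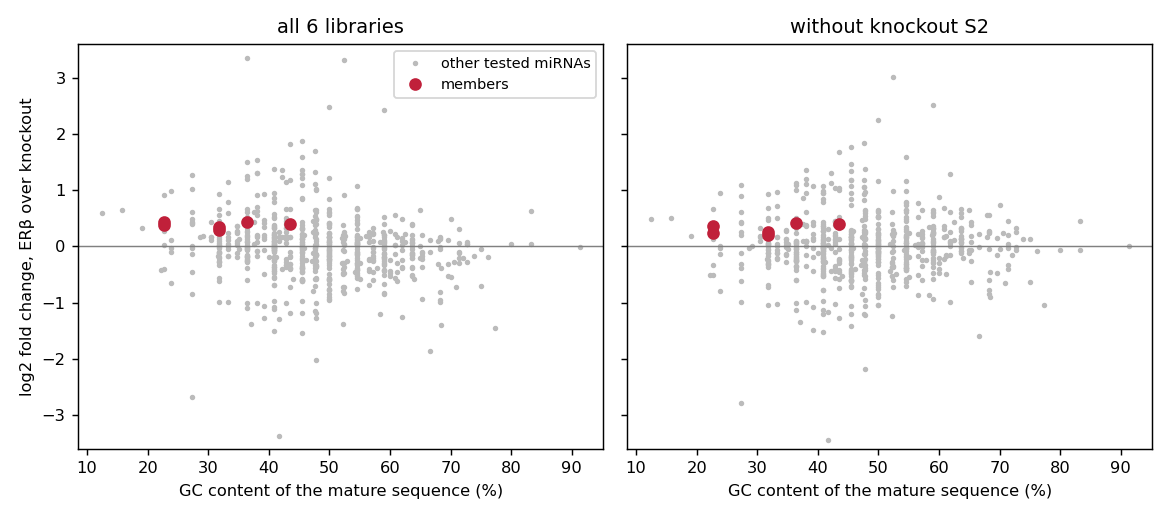
Log2 fold change, ERβ over knockout, against the GC content of the mature sequence for all tested miRNAs with a RefSeq sequence (grey) and 6 members (red), from all 6 libraries on the left and without knockout S2 on the right. The members lie at 22.7 to 43.5% GC and above 0 in both panels.

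The levels of the members kept nearly the same order within each library. This order and the use of the arms are not the comparison on which the members were chosen, so they were tested, with exact two-sided sign-flip permutation tests of log2 (CPM + 0.5) over the 6 libraries, where the smallest possible p is 0.0312. Mature miRNAs are 22 or 23 bases long here, so counts need no correction for length, though capture in a library differs between sequences. The order by mean level, taken from these same 6 libraries, was miR-374a-5p, miR-421, miR-374b-5p, miR-374a-3p, miR-374b-3p, miR-545-5p and miR-545-3p. Neighbouring pairs were picked from this order, so their p-values only describe how steady it was between libraries. miR-374a-5p exceeded miR-421 5.61-fold on average, with 6 of 6 libraries in this direction (exact permutation test, p = 0.0312, adjusted over 6 neighbouring pairs 0.0375). The 4 pairs from miR-374b-5p downward gave the same p-values and 6 of 6 libraries, although miR-374b-5p exceeded miR-374a-3p only 1.24-fold. The neighbours miR-421 and miR-374b-5p were not separated by the test. Their log2 difference was 0.16 ± 0.14 (SD), a ratio of 1.12, miR-421 was higher in 5 of 6 libraries, and knockout 3 went the other way (exact permutation test, adjusted p = 0.0625).

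In all 3 hairpins with both arms listed the 5p arm was the more abundant. miR-374a-5p exceeded miR-374a-3p 7.81-fold on average, by a mean log2 difference of 2.97 ± 0.10 (SD over 6 libraries). For miR-374b the 5p arm was 10.2-fold higher (3.35 ± 0.08) and for miR-545 2.18-fold (1.12 ± 0.13). Each held in 6 of 6 libraries (exact permutation test, p = 0.0312, also adjusted over 3). The lowest ratio in any library was 7.17 for miR-374a and 9.26 for miR-374b, and the highest for miR-545 was 2.48. Between groups the ratio of the arms overlapped in all 3 hairpins: it was 7.17 to 7.99 in knockout cells and 7.88 to 8.67 with ERβ for miR-374a, 9.99 to 10.7 and 9.26 to 10.8 for miR-374b, and 2.06 to 2.48 and 2.00 to 2.44 for miR-545.

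**Figure D5:**
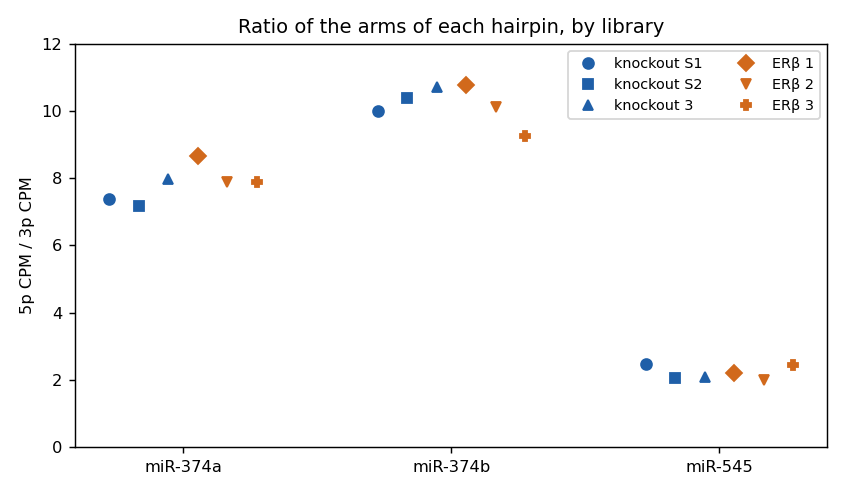
Ratio of 5p to 3p CPM for the hairpins with both arms in the table, in each library; blue points are knockout and orange points ERβ libraries, on a linear axis from 0. The ratios lie near 8 for miR-374a, near 10 for miR-374b and near 2 for miR-545, with overlapping groups.

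Ratios between members were compared by library. The ratio of the paralogous guides miR-374a-5p and miR-374b-5p was 6.20, 5.36 and 6.11 in knockout S1, S2 and 3 and 6.44, 6.88 and 6.84 in ERβ 1, 2 and 3. These groups did not overlap, and S2 was again the lowest. How often ratios of other miRNA pairs lie apart was not computed, so nothing is read from this separation. How many reads were divided between both names was not tested, so this ratio is uncertain by that amount. The ratio of miR-374a-3p to miR-374b-3p, 7.77 to 8.41 in knockout cells and 8.02 to 8.84 with ERβ, did overlap. So did that of miR-421 to miR-374b-5p, at 0.953 to 1.27 and 1.14 to 1.18, and that of miR-374a-5p to miR-545-5p. For both of these the ERβ libraries lay within the knockout range.

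The opposite-strand products and the seed relative were near the floor. miR-374c-5p was at 1.09, 0.413 and 1.22 CPM in knockout cells and 0.721, 1.07 and 0.879 CPM with ERβ, groups that overlapped, with a log2 fold change of 0.02 ± 0.41. The test did not call it. miR-374c-3p had a mean of 0.309 CPM, at about the floor, and was too low to test. So was miR-655-3p, at 0.364, 0.0826 and 0.509 CPM in knockout cells and 0.541, 1.47 and 0.744 CPM with ERβ. Its groups did not overlap, but knockout 3 held 5 counts and ERβ 1 held 6, with knockout S2 at 1 count. Counts this low bear no comparison with the members.

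Other X-linked miRNA clusters are given for comparison. In the Xq26 cluster of miR-424 and miR-503, 9 of 11 tested were lower with ERβ and 0 higher, where 13.3% of all tested miRNAs were lower and 9.83% higher (edgeR quasi-likelihood test, Benjamini-Hochberg adjusted; 0 were higher at an unadjusted p under 0.05 or by DESeq2 or limma-voom), with a median log2 fold change of -0.60. miR-424-5p, a cell-cycle inhibitor of the miR-15/16 seed family, went from 1196 ± 60.2 to 560 ± 26.7 CPM (mean ± SD, n = 3), with miR-503-5p at -0.68 ± 0.13 and miR-450a-1-3p at -0.62 ± 0.11. In the neighbouring cluster of miR-106a and miR-363, 3 of 5 tested were lower and 1 higher, miR-106a-5p (0.45 ± 0.12). There miR-20b-5p, the median of the 5, was at 570 ± 32.6 and 284 ± 4.67 CPM, miR-363-3p at a log2 fold change of -1.11 ± 0.10 and miR-106a-3p at -1.04 ± 0.20. Of 16 tested in the CLCN5 cluster of Xp11, 0 passed in edgeR (median -0.01), 0 had an unadjusted p under 0.05, and DESeq2 and limma-voom called 0. The examples with the smallest adjusted p there were miR-500a-5p (0.23 ± 0.11), miR-500b-5p (0.24 ± 0.13) and miR-532-3p (-0.39 ± 0.26). Of 27 further X-linked miRNAs 2 were higher, a share near that of all tested miRNAs (9.83%), and 9 were lower, against 13.3% of all tested (median -0.18). The named examples are the GABRA3-hosted miR-767-5p (-1.39 ± 0.12), miR-105-5p (-1.27 ± 0.10) and miR-105-3p (-1.19 ± 0.14). The difference between these clusters and the FTX products was not tested.

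The miRNAs whose profile over the 6 libraries lay closest to that of miR-374a-5p came from outside the cluster. Likeness was the root mean square difference of mean-centred log2 (CPM + 0.5), over 389 miRNAs averaging at least 10 CPM. The 5 closest outside the members were miR-548am-5p (0.06), miR-934 (0.07), miR-582-3p, miR-106a-5p and miR-548o-5p (0.08 each). Both miR-934 and miR-106a-5p are also X-linked. miR-934 was at 3001, 2227 and 2895 CPM in knockout cells and 3558, 3667 and 3670 CPM with ERβ. Like miR-374a-5p, all 5 were lowest in S2 and had log2 fold changes of 0.36 to 0.58. Picking by likeness favours both traits, so neither is a separate result. The counts of miR-106a-5p and the miR-548 products are in part not whole, so reads shared with relatives leave them uncertain. Of the members, miR-374a-3p came closest, at place 10 (0.09), and miR-421 last, at place 47 (0.19).

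Because the products share a host gene, the promoter of FTX is shown from RefSeq on GRCh38.p14, chrX:74293525-74293824, minus strand, from 250 bases before the start to 50 after it, with a half-site of the estrogen response element in capitals.
FTX: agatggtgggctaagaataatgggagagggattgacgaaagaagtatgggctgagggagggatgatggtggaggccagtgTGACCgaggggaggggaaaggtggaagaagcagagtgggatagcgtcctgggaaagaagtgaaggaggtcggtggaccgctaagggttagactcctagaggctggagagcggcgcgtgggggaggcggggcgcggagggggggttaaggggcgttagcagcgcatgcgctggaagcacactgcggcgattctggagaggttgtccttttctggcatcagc
The full element, 2 half-sites GGTCA facing each other 3 bases apart and searched on both strands, is not in this window, and 0.0570% of 35116 promoter windows of this length hold it. The half-site alone, which is part of the full element, occurs 1 time, on the opposite strand and therefore as TGACC, at position 81. One or more half-sites on either strand are in 37.4% of promoter windows. This describes letters only, and no binding was measured.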

How the data were processed

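QIAseq small RNA libraries of 6 KPL4 samples were compared; the kit is named per the labels' protocols, FastQC, Trim Galore and GRCh38 per the submitters' processing notes. Aligner, counter, annotation release and handling of molecular identifiers: not given in the sources used here. Values deposited by the authors are expected counts for 2656 mature miRNAs. Columns were matched to groups by name. A pair of knockout columns bears the number 1 and none the number 2, so S1 and S2 are known by group only.

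Counts, once rounded, were analysed with edgeR 4.0.16 (R 4.3.3): filterByExpr (count 10, total 15), TMM, robust quasi-likelihood test with no covariates, Benjamini-Hochberg adjustment over 783 miRNAs at 0.05. Dividing a log2 fold change by the root of its F gave the standard error. The script was tested on simulated data. Levels within libraries were compared by exact permutation. The members and lists were chosen with earlier results of these data known. Besides all members, the text names the other arms of the locus, seed relatives, up to 3 miRNAs per X-linked list by smallest adjusted p and the 5 closest profiles. The single markers named were picked with their values in view. Alternatives used DESeq2 1.42.0, limma 3.58.1, other scalings and filters, a replicate block, omission of single libraries, and a loess trend on GC content (span 0.75, degree 1).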

Additional observations from a re-analysis of the deposited data

How the results depend on the processing

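For all 7 members, chosen on this comparison, every ERβ library lay above every knockout library. Refits of the same libraries were thus unlikely to change a sign, so the signs are given as a description only. The log2 fold changes of the 7 members stayed positive in all 104 values computed under the alternatives, from 0.19 to 0.64. The number of members that passed did not: it was 4 with all libraries, DESeq2 size factors and limma-voom, and 7 with upper-quartile factors, with library totals, without a filter, with the filter of 10 CPM in 3 libraries and with the DESeq2 test. With the replicate block, in which the numbers in the column names were used although 2 knockout columns share the number 1, 0 members passed and 88 miRNAs in all against 181 (38 higher, 50 lower). No knockout column bears the number 2, so in this fit ERβ 2 had no partner and added nothing to the contrast. Same-numbered libraries did not deviate together beyond correlations of -0.10 to 0.13, so the numbers were not taken as pairs. The cause of the lost calls was not tested. Leaving out one library gave 1 (without ERβ 2) to 7 (without knockout S2) members and 111 to 279 miRNAs in all; without ERβ 3 it gave 2. miR-421 passed in 13 of 14 alternatives with a test, miR-374a-5p in 10 and miR-374a-3p in 6. The alternatives reuse the libraries on which the members were chosen, so these counts rank no member. Library totals moved the median over all miRNAs from -0.01 to 0.14 and upper-quartile factors to 0.10, and the share of calls that were higher from 42.5% to 70.5% and 63.7%; the members' medians were then 0.56 and 0.51, still above those shifts.

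Other pseudocounts (0.1 and 2 CPM) changed no call on levels or arms. With a library left out 5 remain and the exact test cannot go below 0.0625. The log2 differences then ran from 2.45 to 2.57 for miR-374a-5p over miR-421, 0.13 to 0.21 for miR-421 over miR-374b-5p, 0.29 to 0.34 for miR-374b-5p over miR-374a-3p, 3.01 to 3.05 for miR-374a-3p over miR-374b-3p, 1.06 to 1.12 for miR-374b-3p over miR-545-5p and 1.09 to 1.15 for miR-545-5p over miR-545-3p. For the arms they ran from 2.94 to 2.99 (miR-374a), 3.33 to 3.37 (miR-374b) and 1.09 to 1.15 (miR-545).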
